A study of Mus musculus with 33 samples.

Results

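Bone marrow (BM) RNA of mice killed on day 7 after venetoclax was compared with that of mice killed on day 7 after either drug vehicle. The comparison holds 7 of the 33 mice of the series, selected by the treatment and day in their labels and by no measured value. Venetoclax blocks BCL2, a protein that keeps lymphocytes alive by holding back the proteins that open the mitochondrial membrane. B cells pass in the BM from precursors that carry the surrogate light chain, through pre-B cells that rearrange their light chain, to immature cells that leave for the blood. MHC class-II molecules on B cells, dendritic cells and macrophages present peptides to CD4 T cells.

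All mice were female C57BL/6 wild-type animals of 6 to 8 weeks. The 3 venetoclax-treated mice had been given the drug by oral gavage for 2 days. The 4 control mice were 2 that received the vehicle of venetoclax (phosal, polyethylene glycol 400 and ethanol) and 2 that received the vehicle of ruxolitinib, a JAK1/2 inhibitor (DMSO, polyethylene glycol 300 and water), over the same 2 days. Whole BM was profiled with an nCounter panel, in which barcoded probes are counted 1 molecule at a time without amplification. The study also holds mice of days 1 and 3, ruxolitinib-treated mice and 3 untreated mice, used here only as references.

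Endogenous probe counts per lane ran from 43698 to 466096 over the 7 mice, a 10.7-fold range, and each group held both deep and shallow lanes. Venetoclax-treated mouse 3 had 466096 counts, against 66683 and 50682 in mice 1 and 2. A probe was taken as detected above a level set from the negative probes (their mean + 2 SD in that lane), which was 2.18 to 7.85 counts, and 49.9% to 79.9% of probes passed it. All day 7 lanes belonged to 1 run of 11 lanes. Values below are normalised counts, that is counts divided by a lane factor from 11 housekeeping probes, and fold changes are log2 values of venetoclax over the pooled vehicles from edgeR's quasi-likelihood test. In whole marrow, fewer cells of a type and less RNA per cell cannot be told apart.

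The lanes carried the transcripts of whole marrow. S100a8, a granulocyte protein, lay between 36938 and 53846, and Mpo, the peroxidase of granulocyte precursors, between 2691 and 3847. The B-lineage markers Pax5 (64.0 to 129) and Cd79b (231 to 375) and the T cell receptor chain Cd3d (14.4 to 49.2) were above background in all 7 lanes. Cd3e and the NK receptor Ncr1 were above background in 5 and 4 of 7 lanes. Of 3 epithelial genes that marrow should lack, Muc1 was above background in 0 of 7 lanes, Epcam in 3 (at most 4.74) and Cdh1, which erythroid precursors also express, in 6 (6.95 to 21.3).

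Igll1 was the 1 gene that edgeR called lower after venetoclax on day 7, with 0 called higher, and limma also called Il4ra lower. Over 655 genes tested in edgeR, 1 had a Benjamini-Hochberg adjusted p under 0.05 (0.153% of genes). An unadjusted p under 0.05 was found for 29 (4.43%), of which 23 were lower (3.51%) and 6 higher (0.916%). The median log2 fold change over all genes was 0.06, and 268 genes (40.9%) lay below 0. All 3 venetoclax-treated mice were below all 4 vehicle mice for 20 genes (3.05%) and above them for 20 (3.05%). Each such order is 1 of the 35 ways to arrange 3 and 4 mice. A share of this size can therefore arise without any drug effect, and no overlap in a single gene is weak evidence.

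**Figure D1:**
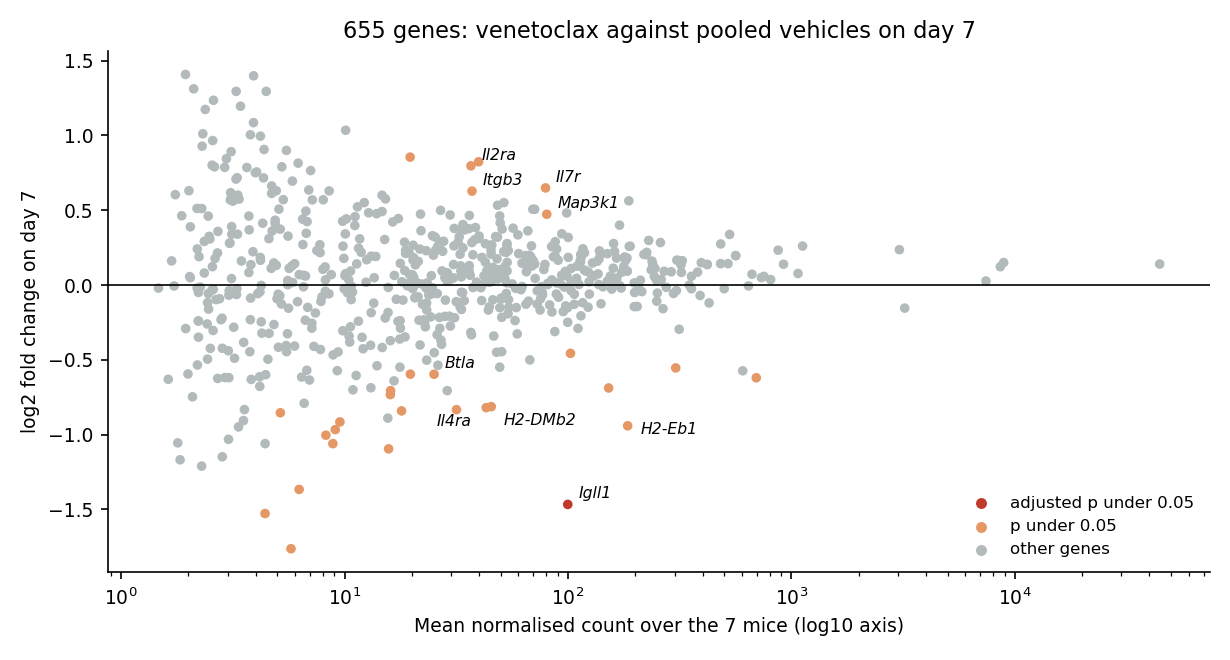
Each point is 1 of 655 genes, with the mean normalised count over the 7 mice (log10 axis) against the log2 fold change of venetoclax over pooled vehicles on day 7. Igll1 (red) passed the adjusted threshold at -1.47, the orange points have an unadjusted p under 0.05, and the spread of the grey points widens toward low counts.

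Igll1 encodes the lambda-like part of the surrogate light chain, which pairs with the heavy chain in B cell precursors to form the pre-B cell receptor. Its normalised counts were 52.1, 64.0 and 40.9 in the venetoclax-treated mice, from 30, 27 and 131 counted molecules. They were 167 and 112 after the vehicle of venetoclax and 129 and 133 after the vehicle of ruxolitinib. The highest drug-treated mouse was therefore well below the lowest vehicle mouse. The means were 52.4 ± 11.6 (SD, n = 3) and 135 ± 22.9 (SD, n = 4), for a fitted log2 ratio of -1.47 (standard error 0.26, edgeR adjusted p = 0.00188), or 2.76 times lower. Without venetoclax-treated mouse 3, the deepest lane, the value was -1.25 and the adjusted p = 0.176, and against the ruxolitinib vehicle alone it was -1.39 with an adjusted p = 0.0538.

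The start of Igll1 is shown because it is the gene that passed the test. The window runs from 250 bases before to 50 after the annotated start on the minus strand, at chr16:16863936-16864235 (RefSeq, GRCm38.p6), printed 5′ to 3′. Capitals mark E boxes (CANNTG, the letters bound by E proteins) and the palindrome CCCNNGGG found in sites of the B cell factor EBF1.
Igll1: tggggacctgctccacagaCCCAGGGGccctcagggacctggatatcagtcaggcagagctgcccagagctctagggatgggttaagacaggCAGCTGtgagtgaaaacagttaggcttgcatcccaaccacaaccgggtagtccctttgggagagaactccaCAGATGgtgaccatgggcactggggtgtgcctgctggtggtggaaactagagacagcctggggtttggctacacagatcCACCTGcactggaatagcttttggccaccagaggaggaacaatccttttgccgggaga
It held 3 E boxes, at -158, -87 and -8 from the start, and 1 CCCNNGGG match, at -231, with no overlap between them. Searched on both strands, 72.3% of 32851 RefSeq windows of this length hold CANNTG and 13.7% hold CCCNNGGG.

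Igll1 was not lower after venetoclax on the earlier days. The mice labelled day 3 were read in a run whose file headers say day 2, so their day is uncertain, and the label is used here. On day 1 the venetoclax-treated mice (65.8 to 99.8) overlapped the vehicle mice (69.3 to 92.8), with a log2 fold change of -0.04. On day 3 they lay above them, at 120 to 148 against 70.3 to 107, with a log2 fold change of 0.48 (edgeR adjusted p = 0.511). The day 7 change was lower than the day 3 change by a log2 difference of -1.94 (standard error 0.35, edgeR adjusted p = 0.00194), the 1 gene of 655 that passed that test (0.153%). This call was lost without venetoclax-treated mouse 3, with total-count scaling and with limma. Against the day 1 change the difference was -1.43 (edgeR adjusted p = 0.0918).

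The day 7 vehicle mice were themselves the highest vehicle mice of the series for Igll1, with a mean of 135 against 83.1 on day 1 and 96.4 on day 3. The untreated mouse read in the day 7 run had 115, inside the range of the day 7 vehicles, and the untreated mice of the runs holding days 1 and 3 had 83.2 and 67.2. With all 3 untreated mice as controls the log2 fold change was -0.76 and did not pass (edgeR adjusted p = 0.0796). Since each day was read in a run of its own, day and run cannot be told apart when levels are set across days.

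**Figure D2:**
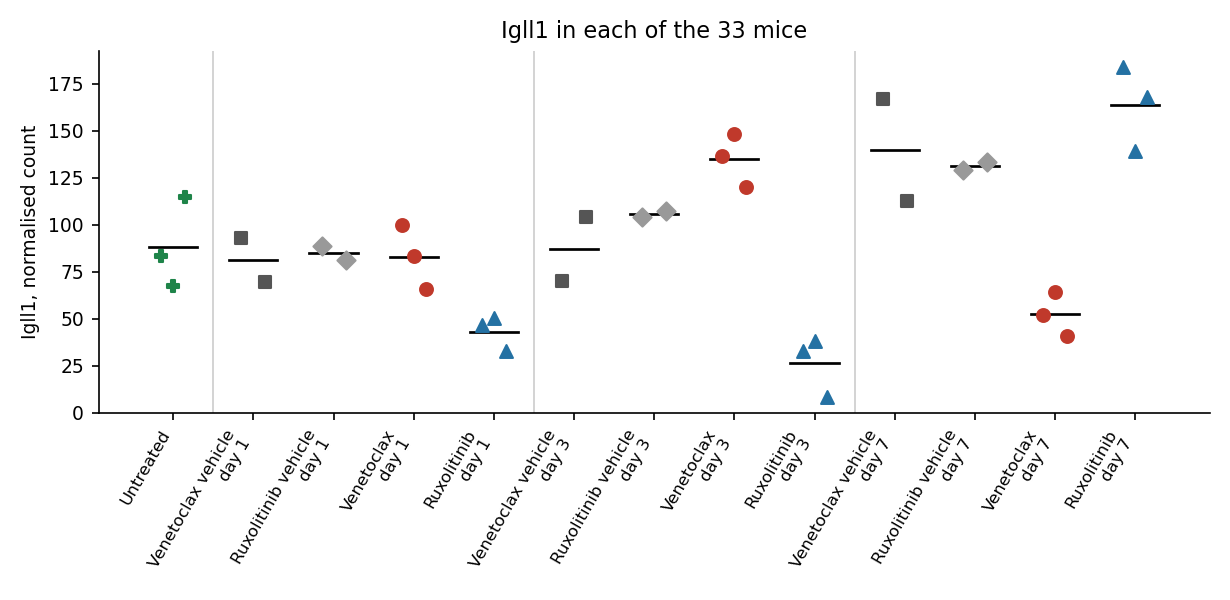
Igll1 normalised count in each of the 33 mice by group, with the group mean as a bar. On day 7 the 3 venetoclax-treated mice (40.9 to 64.0) sit below the 4 vehicle mice (112 to 167) and the ruxolitinib-treated mice (139 to 184), whereas on day 3 they sit above their vehicle mice.

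Most other genes of B cell precursors were above 0, and none of them passed the test. Of 13 tested members of the pre-B list, 3 were below 0 (23.1%, beside 40.9% of all genes) and 10 above. The median was 0.09 beside 0.06 over all genes, and Igll1 alone passed the adjusted test. The median was -0.04 without venetoclax-treated mouse 1, 0.20 without mouse 2 and 0.28 without mouse 3, 0.21 with the replicate block and -0.35 against untreated mice. Rag1, a subunit of the recombinase that cuts immunoglobulin gene segments, measured 86.9, 45.1 and 58.4 after venetoclax and 36.5 to 48.4 in the vehicle mice, at 0.55 (standard error 0.30, edgeR adjusted p = 0.998). Pax5, the factor that holds cells in the B lineage, was at 0.01, the signalling adaptor Blnk at 0.13 and the receptor chain Cd79b at 0.28, each within 1 standard error of 0.

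MHC class-II genes lay mostly below 0, without a gene that passed adjustment. Of 10 tested, 8 were below 0 (80%, beside 40.9% of all genes), with a median of -0.56, and 4 had an unadjusted p under 0.05 (beside 4.43%). This list rests on genes that the study chose on these samples, so its direction is not independent evidence. Averaged over the list as log2(normalised count + 1), the venetoclax-treated mice were at 6.56, 6.30 and 6.31 and the vehicle mice at 6.75, 7.06, 7.01 and 6.62, with no overlap.

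H2-Eb1, a beta chain of the class-II peptide receptor, had 136, 104 and 121 after venetoclax. The vehicle mice had 154 and 289 (venetoclax vehicle) and 299 and 191 (ruxolitinib vehicle), all above the drug-treated mice but with a wide spread. Its log2 fold change was -0.94 (standard error 0.26, edgeR adjusted p = 0.184), and it ranged from -1.11 (adjusted p = 0.0483, without venetoclax vehicle mouse 1, the lowest vehicle mouse) to -0.77 (adjusted p = 0.720, without ruxolitinib vehicle mouse 1) with 1 mouse left out. H2-DMb2, a chain of the chaperone that loads peptides on class-II molecules, had 29.5, 33.2 and 32.2 against 55.9, 61.8, 57.7 and 47.1, a narrow spread in both groups and no overlap. Its log2 fold change was -0.81 (standard error 0.27, edgeR adjusted p = 0.474). With untreated mice as controls H2-DMb2 was at -0.29 (edgeR adjusted p = 0.542) and H2-Eb1 at -1.20 (edgeR adjusted p = 0.00714). The untreated mice had 12.8, 39.6 and 64.0 for H2-DMb2. The lowest came from a raw count of 4, below the background of that lane (7.47), and the highest from the day 7 run.

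For H2-Aa, H2-Ab1 and Cd74 the groups overlapped. The invariant chain Cd74 had 634, 424 and 539 after venetoclax and 594 to 982 in the vehicle mice, at -0.62 (edgeR adjusted p = 0.941). H2-Ab1 was at -0.55 (edgeR adjusted p = 0.596) and H2-Aa at -0.57 (edgeR adjusted p = 0.998), in both of which mouse 1 reached the vehicle range. Over the 15 alternatives other than leaving out 1 mouse, Cd74 ranged from -0.70 to -0.25 and H2-Ab1 from -0.63 to -0.33. Ciita, the transactivator of the class-II genes, was at -0.62 with no more than 10.1 normalised counts in any mouse. H2-Dma, partner chain of H2-DMb, was at 0.00 and the protease Ctss at 0.12.

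The day 7 values followed larger ones on day 1. The median of the 10 genes was -1.20 on day 1, with 6 passing the adjusted test (beside 3.97% of all genes), -0.79 on day 3, with 0 passing, and -0.56 on day 7, with 0 passing. On day 3, 0 of all 655 genes passed in edgeR, and 63 had an unadjusted p under 0.05 (9.62%). No class-II gene passed the test of the day 7 against the day 1 change: H2-DMb2 went from -1.73 to -0.81 (edgeR adjusted p of the difference 0.560) and H2-Eb1 from -1.46 to -0.94 (0.711). The days hold different mice and different vehicle mice.

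**Figure D3:**
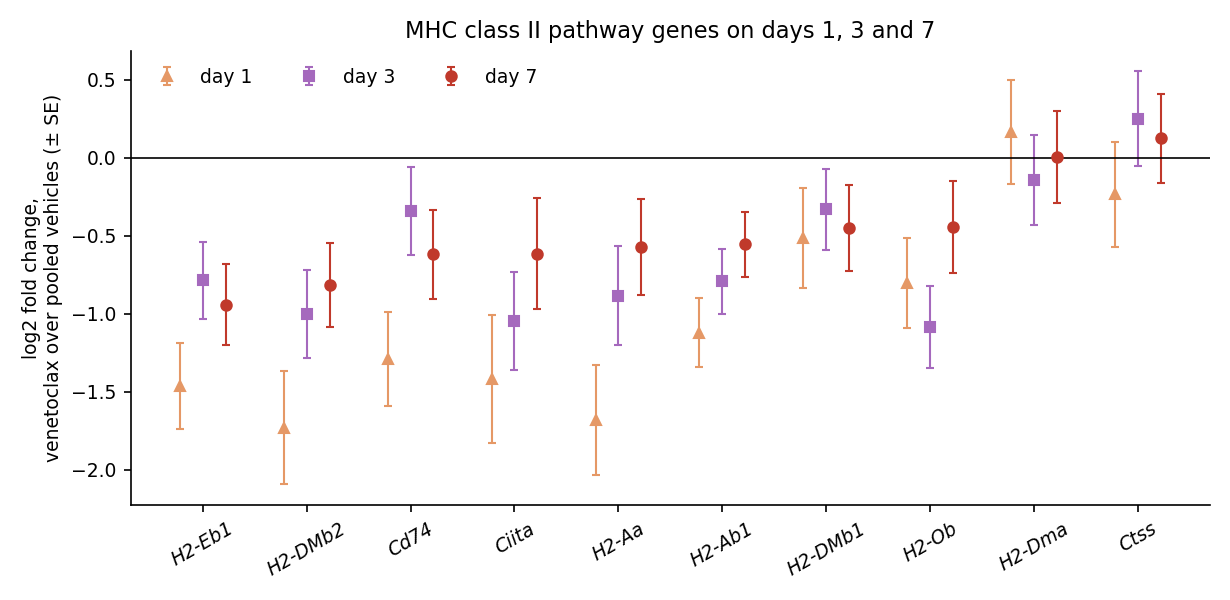
log2 fold change ± standard error of 10 MHC class-II pathway genes after venetoclax on days 1, 3 and 7, each against the pooled vehicles of that day. The 8 genes on the left are below 0 on all 3 days, and H2-Dma and Ctss lie near 0 on day 7.

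The starts of H2-Eb1 and H2-DMb2 are shown as the class-II genes whose groups did not overlap. Both windows are on the plus strand, at chr17:34305617-34305916 and chr17:34144999-34145298 (RefSeq, GRCm38.p6), printed 5′ to 3′, with capitals for the CCAAT box in either orientation (CCAAT or ATTGG), which forms the core of the Y box of class-II promoters.
H2-Eb1: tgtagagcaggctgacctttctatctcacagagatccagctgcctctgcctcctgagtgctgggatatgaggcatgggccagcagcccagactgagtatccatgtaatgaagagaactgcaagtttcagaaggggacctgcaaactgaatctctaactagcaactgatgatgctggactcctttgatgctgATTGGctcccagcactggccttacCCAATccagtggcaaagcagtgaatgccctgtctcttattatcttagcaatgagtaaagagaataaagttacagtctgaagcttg
H2-DMb2: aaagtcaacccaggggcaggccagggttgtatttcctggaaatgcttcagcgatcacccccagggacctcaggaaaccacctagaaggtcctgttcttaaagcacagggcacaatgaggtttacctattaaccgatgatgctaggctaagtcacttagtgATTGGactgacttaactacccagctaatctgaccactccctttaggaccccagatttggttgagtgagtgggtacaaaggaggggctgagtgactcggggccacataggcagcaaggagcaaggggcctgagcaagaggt
H2-Eb1 held the box at -59 and -35 and H2-DMb2 at -90, beside 37.4% of all windows with at least 1. The longer CTGATTGG, which contains the box, was in H2-Eb1 and in 4.1% of all windows but not in the H2-DMb2 window.

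T cell transcripts also lay mostly below 0, many of them at counts close to background. Of 23 tested, 18 were below 0 (78.3%, beside 40.9%), with a median of -0.54, 5 had an unadjusted p under 0.05 (beside 4.43%) and 0 passed adjustment in edgeR. Only 4 of the 23 were above background in all 7 lanes, and these had a median of -0.43. Averaged over the list per mouse, the groups overlapped (2.97, 3.37 and 2.69 against 3.23, 3.67, 3.23 and 3.28), and without venetoclax-treated mouse 3 the median was -0.11.

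Cd3d had 22.6, 30.8 and 14.4 after venetoclax and 27.7, 47.8, 29.3 and 49.2 in the vehicle mice, so mouse 2 lay inside the vehicle range. Its log2 fold change was -0.83 (standard error 0.32, edgeR adjusted p = 0.596). Tcf7, a transcription factor of naive and precursor T cells, had 8.69, 16.6 and 7.49 against 18.4 to 20.1, without overlap, at -1.09 (edgeR adjusted p = 0.474). Zap70, the kinase of the T cell receptor, was at -1.06 and Cd8a at -1.76, both at means below 20 normalised counts. Zap70 passed the adjusted threshold under 1 of 14 alternatives other than leaving out 1 mouse, which gave -2.54 to -0.73. Without venetoclax-treated mouse 3 the values were -0.39 for Cd3d, -0.68 for Tcf7, -1.72 for Zap70 and -0.43 for Cd8a, and without mouse 2 Cd8a was at -2.63.

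Mature B cell genes lay slightly below 0. Of 17 tested, 16 were below 0 (94.1%, beside 40.9%), with a median of -0.21, 4 had an unadjusted p under 0.05 (beside 4.43%) and 0 passed adjustment in edgeR. The median was -0.50 without venetoclax-treated mouse 1 and -0.11 without mouse 2. The 9 members above background in all lanes had a median of -0.09, and the other 8 a median of -0.65. Btla, an inhibitory receptor, had 24.3, 21.3 and 15.6 against 27.7, 33.7, 28.7 and 24.6, which do not overlap by a narrow margin, at -0.60 (edgeR adjusted p = 0.954). Without venetoclax-treated mouse 3 it was at -0.30, and against untreated mice at -1.60 (edgeR adjusted p = 0.000899). Part of that last distance lay between vehicle and untreated mice: Btla averaged 28.7 in the day 7 vehicle mice and 55.4 in the untreated mice. The untreated mouse of the day 7 run had 50.6. Ms4a1, the CD20 gene, was at -0.14, and Ccr6 and Cxcr5, chemokine receptors of follicular B cells, were at -1.37 and -1.004 with at most 14.04 normalised counts in any mouse. Ccr6 was at -0.81 without venetoclax-treated mouse 3, and against untreated mice Ccr6 and Cxcr5 were at -1.95 and -1.44 (edgeR adjusted p = 0.0235 and 0.0273).

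Genes of the common gamma chain group, 7 receptor chains and the kinases Jak1 and Jak3 that signal from them, lay on both sides of 0. Of these 9 tested, 6 were below 0 and 3 above, with Jak1 at 0.18 and Jak3 at -0.29. Il4ra, the interleukin-4 receptor chain, had 20.8, 28.5 and 35.6 after venetoclax and 50.4, 59.0, 53.7 and 53.3 in the vehicle mice, a clear gap to a tightly grouped control. Its log2 fold change was -0.82 (standard error 0.22, edgeR adjusted p = 0.184), beside 0.02 on day 1 and -0.08 on day 3. It passed under 2 of 22 alternatives, in limma (adjusted p = 0.0454) and against untreated mice (-0.88, edgeR adjusted p = 0.0200), but not in limma after background subtraction (adjusted p = 0.125). With 1 mouse left out it ranged from -1.14 to -0.67, and none of these 7 fits called it.

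Il2ra and Il7r were on the other side. Il2ra, the alpha chain of the interleukin-2 receptor, also carried by B cell precursors, had 64.3, 47.4 and 38.4 against 32.0, 22.5, 24.1 and 28.7, at 0.80 (standard error 0.26, edgeR adjusted p = 0.474). Il7r, the receptor for the main growth signal of early lymphocytes, had 116, 116 and 75.3 against 71.9, 53.4, 60.7 and 61.5, at 0.65 (standard error 0.26, edgeR adjusted p = 0.604). Neither overlapped the vehicle mice, although mouse 3 lay close to the highest of them in both. Against untreated mice Il7r turned to -0.45, whereas Il2ra was at 1.35 (edgeR adjusted p = 0.00762). The raw Il2ra counts of untreated mice 1 and 3 were both 3, below the background of their lanes (7.47 and 5.31). The size of 1.35 is therefore not exact.

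**Figure D4:**
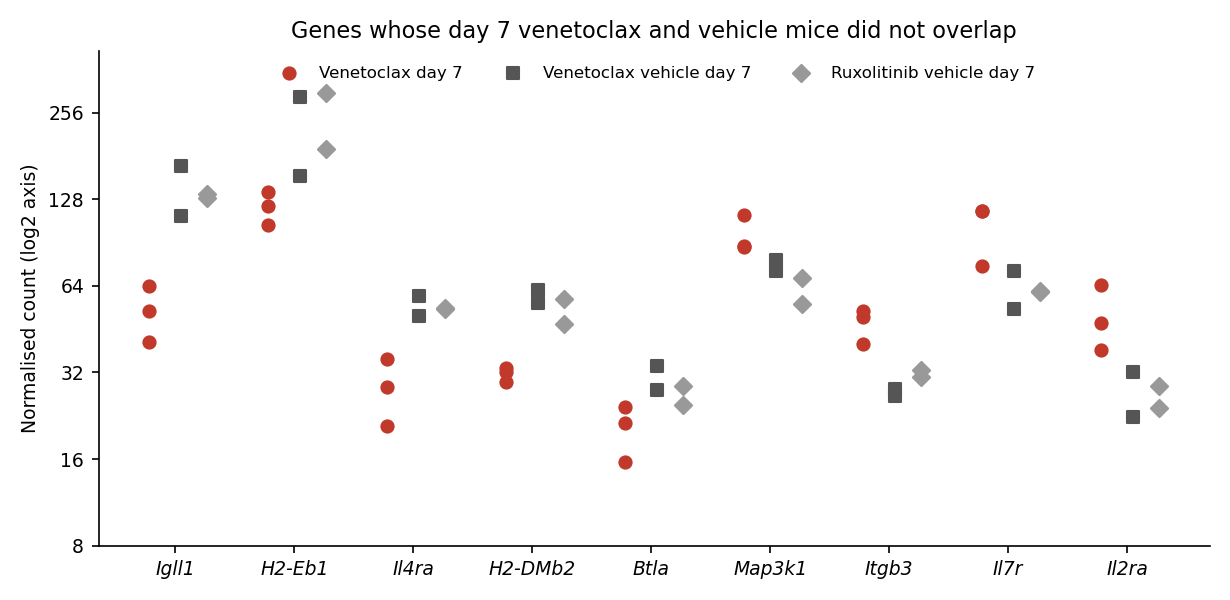
Normalised counts (log2 axis) of the 9 genes with an unadjusted p under 0.05, a mean of at least 20 and no overlap between venetoclax-treated and vehicle mice, 1 point per mouse. Igll1, H2-Eb1, Il4ra, H2-DMb2 and Btla are lower after venetoclax and Map3k1, Itgb3, Il7r and Il2ra higher. Igll1 alone passed the adjusted test in edgeR, and Il4ra also passed in limma.

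The remaining genes of that plot were Itgb3 and Map3k1. Itgb3, an integrin chain of platelets, had 52.1, 49.8 and 40.3 against 26.6, 28.1, 32.7 and 30.7, at 0.63 (edgeR adjusted p = 0.651), but turned to -0.71 against untreated mice (edgeR adjusted p = 0.0765). Of 7 megakaryocyte and platelet genes, Itgb3 included, 7 were above 0 (beside 387 of all 655 genes). Their median was 0.26 (0.15 without venetoclax-treated mouse 3), beside 0.06 over all genes. After Itgb3 the highest were Vwf (0.50) and Ppbp (0.48), whose groups overlapped. Averaged over the list per mouse, the groups met at 6.23 (6.23, 6.39 and 6.29 against 5.68, 6.23, 6.12 and 5.94). Map3k1, a kinase upstream of JNK, had 113, 87.7 and 87.4 against 55.3 to 78.6, at 0.47 (edgeR adjusted p = 0.596), and was at 0.17 against untreated mice (edgeR adjusted p = 0.889).

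Plasma cell genes were above 0 in 6 of 6 (beside 387 of all 655 genes), and 0 passed in edgeR with or without adjustment. Their median was 0.36, beside 0.06 over all genes. The 4 members above background in all 7 lanes had a median of 0.32, and the other 2 one of 0.54. Per mouse the list averaged 5.23, 4.96 and 4.83 after venetoclax and 4.72, 4.41, 4.61 and 4.53 in the vehicle mice, without overlap. Cd38, an ectoenzyme that precursor B cells also carry, had 66.0, 61.6 and 54.0 against 30.9 to 46.9, at 0.53 (edgeR adjusted p = 0.998), and Xbp1, the secretory factor, was at 0.01. With 1 mouse left out the median ranged from 0.12 (without venetoclax-treated mouse 1) to 0.56.

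NK and interferon genes lay on both sides of 0, and 0 passed adjustment in edgeR. Of 30 NK and cytotoxic genes, 17 were below 0, with a median of -0.06 (-0.13 to 0.04 with 1 mouse left out). The 15 other alternatives took that median from -0.58 to 0.04. Only 5 of the 30 were above background in all 7 lanes, of which 4 were below 0. Il2rb, a receptor chain for interleukins 2 and 15, had 52.1, 64.0 and 49.3 against 66.4 to 84.3, without overlap, at -0.50 (edgeR adjusted p = 0.998). The activating receptor Klrk1, at -0.37, also lay below all vehicle mice, and Ctsw, a cathepsin of cytotoxic cells, was at -0.55 with overlap. Klrd1, a chain of an NK receptor, had 45.2, 37.9 and 36.9 against 32.8 to 56.2, at -0.02 (standard error 0.26). It was at -1.51 on day 1, where it passed (edgeR adjusted p = 0.0152), but the difference between the 2 days did not pass. Its raw counts after venetoclax on day 1 were 2, 14 and 4, the first below the background of its lane (4.39). Gzma, a granule protease, lay above all vehicle mice, at 0.85 (edgeR adjusted p = 0.596), but was at 0.01 against untreated mice. Klrb1 was above background in 0 of 7 lanes.

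Of 26 interferon-inducible genes 11 were below 0, with a median of 0.06 beside 0.06 over all genes. That median was -0.11 without venetoclax-treated mouse 1 and 0.21 without mouse 3. The 1 member with an unadjusted p under 0.05 (beside 4.43% of all genes) was Bst2, which tethers virus particles to the cell surface, with 106, 83.0 and 69.0 after venetoclax and 102 to 128 in the vehicle mice, at -0.46 (edgeR adjusted p = 0.868), or -0.28 without venetoclax-treated mouse 3. Bst2 ran from -0.78 to -0.39 over the 15 alternatives other than leaving out 1 mouse, and passed the adjusted threshold under 1 of them. Ifi35, at -0.33 (edgeR adjusted p = 0.998), was the 1 member whose drug-treated mice all lay below the vehicle mice (3.05% of all genes did). Isg15 was at 0.47, Rsad2 at 0.21, Ifit3 at 0.20 and Oas2 at 0.05, with standard errors of 0.26 to 0.38. Isg20, an interferon-induced exonuclease, was the 1 gene whose day 7 change differed from its day 1 change (log2 difference 1.23, standard error 0.27, edgeR adjusted p = 0.0350; 0.153% of genes). It measured 134, 178 and 212 after venetoclax on day 7 against 135 to 169 in vehicle mice, a log2 fold change of 0.22, and was at -1.003 on day 1. The call was lost with TMM scaling, with total-count scaling, with all 20 housekeeping probes, with either way of treating the vehicles apart and without each of 5 of the 7 mice. Ifnb1 and Ifng were above background in 0 of 7 lanes and were not tested, and Ifna1 had at most 6 counts in a lane.

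Most genes that venetoclax lowered on day 1 were also below 0 on day 7, without one that passed adjustment. Of the 22 genes that passed lower on day 1 (3.36%), 17 were below 0 on day 7 (beside 40.9% of all genes). Their median was -0.23 beside 0.06 over all genes. Of these 22, 7 had an unadjusted p under 0.05 (beside 4.43% of all genes) and 0 passed adjustment in edgeR. Since their day 1 values chose them, a smaller size on day 7 in part follows from the choice. Tfrc, the transferrin receptor of dividing and erythroid cells, went from -0.67 to 0.34 (edgeR adjusted p of the difference 0.0918). Tcf7, Btla and 6 class-II genes were at -0.55 or lower on day 7.

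Neither the drug target gene nor its family passed the test. Bcl2 had 24.3, 9.48 and 11.6 after venetoclax and 6.15 to 19.7 in the vehicle mice, with mouse 1 above the vehicle range and mice 2 and 3 inside it, at -0.22 (standard error 0.35, edgeR adjusted p = 0.998). Bcl2l1, which encodes BCL-XL, had 59.1, 49.8 and 82.8 against 44.9 to 57.4, at 0.38 (standard error 0.22, edgeR adjusted p = 0.998). Of 11 genes of a list that holds the BCL-2 family, caspases, death receptors, their adaptor Fadd and Birc5, an inhibitor of apoptosis, 4 were below 0, with a median of 0.07 (0.019 to 0.14 with 1 mouse left out).

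Myeloid, progenitor and stromal lists had medians between -0.08 and 0.30 and 0 members passed in edgeR with or without adjustment. Neutrophil granule genes had a median of 0.12, with Elane at 0.06, Mpo at -0.15 and Camp at 0.03, and monocyte and macrophage genes one of -0.01, with Csf1r at -0.01 and Ccr2 at 0.13. The median was 0.02 for stem and progenitor genes, 0.02 for eosinophil, basophil and mast cell genes and -0.08 for dendritic cell genes. It was 0.30 for stroma, 0.26 for endothelium, 0.11 for cell division, 0.11 for immediate early genes and 0.02 for MHC class-I genes. Of the 13 stroma genes, 4 were above background in all 7 lanes. These medians moved when 1 mouse was left out, from 0.014 to 0.24 for cell division, 0.15 to 0.40 for endothelium, 0.22 to 0.31 for stroma, 0.08 to 0.22 for immediate early genes and -0.07 to 0.04 for MHC class-I genes. They moved from -0.08 to 0.09 for stem and progenitor genes, -0.12 to 0.15 for eosinophil, basophil and mast cell genes, -0.22 to 0.05 for dendritic cell genes and -0.075 to 0.036 for monocyte and macrophage genes. The neutrophil median was -0.14 without venetoclax-treated mouse 3, and that mouse had the highest normalised counts of the 7 for Camp, Lcn2 and S100a8. The 15 alternatives other than leaving out 1 mouse moved several medians further. They gave -0.04 to 0.74 for neutrophil granule, -0.15 to 0.65 for stem and progenitor and -0.10 to 0.28 for monocyte and macrophage genes. Dendritic cell genes ran from -0.52 to -0.02, cell division from -0.27 to 0.16, immediate early from -0.13 to 0.31 and MHC class-I from -0.22 to 0.06.

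**Figure D5:**
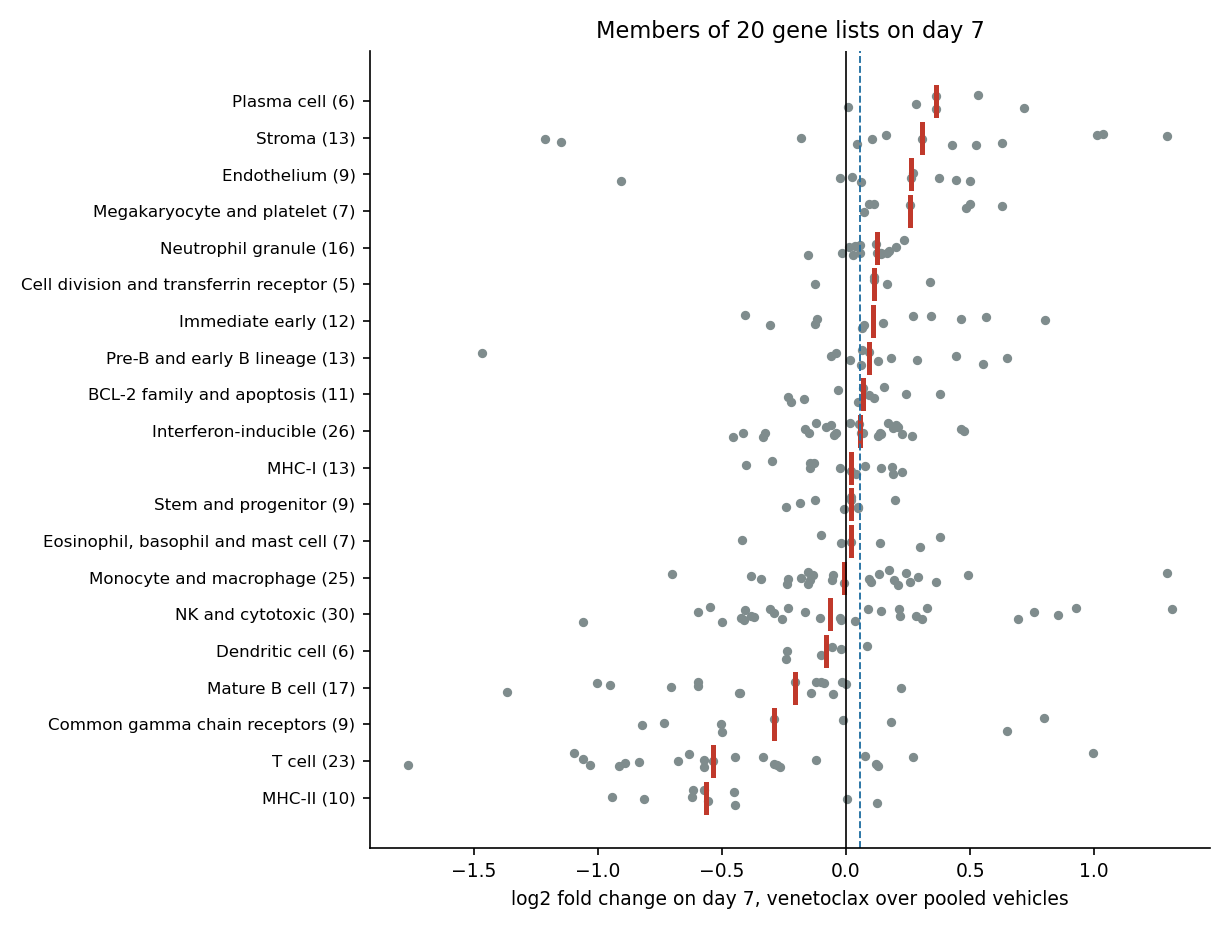
Each grey point is the day 7 log2 fold change of 1 member of 20 gene lists (number tested in brackets), red bars are list medians and the dashed line is the median of all 655 genes, 0.06. The medians of MHC-II (-0.56) and T cell (-0.54) are close to each other and left of the dashed line, and Igll1 stands alone at the left of the pre-B row.

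Set against the ruxolitinib-treated mice of the same day and run, 4 of 655 genes passed (0.611%). Il2ra was higher after venetoclax, at 38.4 to 64.3 against 5.74 to 12.4 (log2 difference 2.83, standard error 0.32, edgeR adjusted p = 1.12e-07). Igll1 was lower, at 40.9 to 64.0 against 139 to 184 (log2 difference -1.71, standard error 0.28). Rag1 and Irf4, a factor of pre-B and plasma cells, were higher by 1.69 and 1.47. In ruxolitinib-treated mouse 3 the raw counts of Il2ra (4), Rag1 (3) and Irf4 (4) were below the background level of that lane (4.81). The sizes of these differences are therefore not exact. Without ruxolitinib-treated mouse 1, Il2ra and Igll1 were the 2 genes that passed, and without venetoclax-treated mouse 3 there were 7. For Il2ra, Igll1, Rag1 and Irf4 the venetoclax value against vehicles was 0.80, -1.47, 0.55 and 0.28, so only for Igll1 was the venetoclax change itself past the threshold.

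The 2 vehicles were pooled, and they could be compared directly. Between the ruxolitinib vehicle and the venetoclax vehicle, 2 mice each, 0 of 655 genes passed in edgeR, DESeq2 or limma, and 20 (3.05%) had an unadjusted p under 0.05 in edgeR. The difference was -0.14 for Igll1 and -0.22 for Il2ra. Against the venetoclax vehicle alone the MHC class-II median was -0.57 and against the ruxolitinib vehicle alone -0.56. For T cell genes the medians were -0.47 and -0.40, and for mature B cell genes -0.34 and -0.20.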

How the data were processed

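The deposited files hold raw nCounter barcode counts, 1 file per mouse, made by the authors from BM RNA. Per the file headers each holds 750 endogenous, 20 housekeeping, 8 negative and 6 positive probes. The authors normalised with nCounter Advanced Analysis, which was not applied to these counts. Lanes were scaled here with the 11 (of 20) housekeeping probes, as a geometric mean, that were above background (mean + 2 SD of negatives) in all 33 lanes. Genes above background in at least 2 of 33 lanes were tested (655 of 750) with edgeR 4.0.16 (glmQLFit, glmQLFTest, R 4.3.3), fitting 10 group means together with the vehicles of each day pooled (23 residual degrees of freedom, common dispersion 0.0391), with Benjamini-Hochberg adjustment over 655 genes. Standard errors are the log2 fold change divided by the root of F. A day 7 change was set against other days by a difference of contrasts, within the same model.

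Genes were named by rule: all with an adjusted p under 0.05, then up to 15 in each direction with an unadjusted p under 0.05, a mean of at least 20 and no overlap, plus list members, the study's genes and Bcl2. Members and the 20 lists were chosen with earlier results of these data known. Lists are described by counts and medians, without a test. The labels name the samples as separate mice, and p-values measure the spread between mice. The common dispersion corresponds to a coefficient of variation between mice of 19.8% beyond counting error, and counting error in shallow lanes adds to it. Alternatives used TMM, total-count and 20-probe scaling, DESeq2 1.42.0, limma 3.58.1 (log2 of normalised count + 1), other filters and controls, a replicate block and each mouse left out. Probe names matched RefSeq by symbol for 734 genes and by synonym for 8. Values of 1 further marker gene are not reported here.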

Additional observations from a re-analysis of the deposited data

Results flagged for a closer look

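The Igll1 change after venetoclax differed between days 7 and 3 by -1.94 on the log2 scale (edgeR quasi-likelihood test of the difference, adjusted p = 0.00194), with all 3 mice below their vehicles on day 7 and all 3 above them on day 3 (the day in the labels, where the file headers of that run say day 2). The Isg20 change differed between days 7 and 1 by 1.23 (adjusted p = 0.0350). Mif, which encodes a cytokine, had 145 normalised counts in venetoclax vehicle mouse 1 and 191 to 197 in the other 3 vehicle mice of day 7, a gap that Dixon's test marks. It was 1 of 29 genes so tested in the 4 vehicle mice, and chance marks about 1 in 20 groups. Mif was at -0.69 after venetoclax (unadjusted p = 0.00246, edgeR adjusted p = 0.403), with venetoclax-treated mouse 1 at 146 and the others at 102 and 92.1. Under 1 of the 15 alternatives other than leaving out 1 mouse (-0.80 to -0.56) Mif passed the adjusted threshold.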

How the results depend on the processing

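The Igll1 fold change was below 0 under all 22 alternatives run (-1.71 to -0.76) and past the threshold under 18. The exceptions were limma after background subtraction (-1.42, adjusted p = 0.0661), the ruxolitinib vehicle alone, untreated mice as controls and leaving out venetoclax-treated mouse 3. The number of genes called on day 7 was 2 with limma, 0 with limma after background subtraction, 0 against the ruxolitinib vehicle alone, 70 against untreated mice and 0 to 2 with 1 mouse left out. The day 7 run held 1 untreated mouse. For the difference between days 7 and 1 it was 0 with TMM, total-count and 20-probe scaling, 0 with the vehicles apart or the venetoclax vehicle alone, 2 with DESeq2 and 0 to 4 with 1 mouse left out. For days 7 and 3 it was 0 with total-count scaling and limma, and 0 to 1 with 1 mouse left out. For venetoclax against ruxolitinib on day 7 it was 8 with the replicate block and 2 to 7 with 1 mouse left out. Against untreated mice, Il7r turned to -0.45 and Itgb3 to -0.71. The cause was not tested. Same-numbered mice deviated from their group means with correlations of -0.12 to 0.24. Each vehicle group held 2 mice, whose deviations mirror each other, so these values cannot tell whether the numbers pair the mice. The replicate block left 1 gene called on day 7 (Igll1, -1.33, edgeR adjusted p = 0.00782). Total-count scaling moved the median of all genes from 0.06 to -0.07, and under it the medians of the pre-B (-0.04), BCL-2 family (-0.12), interferon (-0.05), MHC-I (-0.06), stem and progenitor (-0.15) and eosinophil, basophil and mast cell (-0.15) lists were also below 0. The MHC-II median ranged from -0.68 to -0.31 over all 22 alternatives, and the T cell median was lower than it under 5, among them total-count scaling. Counts near background in shallow lanes limit the T cell, NK and stroma lists.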

Other observations

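Among genes outside the report's groups, Cd36, a fatty acid receptor, was at 0.82 on day 7 (edgeR adjusted p = 0.596), with 31.3, 47.4 and 80.3 after venetoclax and 22.5 to 45.3 in the vehicle mice, beside -1.09 on day 1. Without venetoclax-treated mouse 3 it was at 0.23. Gpr183, a receptor that guides B cells to follicle edges, had 5.21, 2.37 and 7.18 against 10.1 to 14.5, at -0.97 (edgeR adjusted p = 0.596). Without venetoclax-treated mouse 3 it was at -1.57, and over the other alternatives it ranged from -1.97 to -0.49. These 2 genes were chosen after their values were seen.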
